A study of Mus musculus with 4 samples.

Results

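The open chromatin around 7 genes that encode myeloid transcription factors, Spi1, Cebpa, Cebpb, Cebpe, Irf8, Gfi1 and Klf4, was described in 4 ATAC-Seq peak lists. Each window was the gene body plus 40 kb on each side in mm10, and intervals of the 4 lists that shared at least 1 bp were merged into regions. The windows held 250 of the 337776 merged regions of the genome. Of these 250, 131 were seen in 1 library and 119 in at least 2, and 79 were held by all 4 libraries.

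The mice were C57BL/6. The KO animals, Cpt1a Δ/Δ, carried floxed Cpt1a alleles cut by Vav1-Cre, which is active throughout the blood system, so that all blood lineages lacked this fatty acid oxidation enzyme. There were 2 control and 2 KO libraries. The labels call the control genotype WT and the cells ltHSC from bone marrow, whereas the study's methods name Cpt1a fl/fl as the control and its text calls the ATAC-Seq cells HSPCs. The study used adult mice of both sexes, in an age range of weeks given for the whole study, unless it stated otherwise. It says that the ATAC-Seq cells were the same sorted cells as for its RNA-Seq. No separate sex or age is stated for these libraries. Whether the controls carried Cre and whether animals were pooled is not given in the sources used here, so the spread between libraries of a genotype may be technical.

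PU.1, the product of Spi1, opens chromatin at myeloid genes and works with the C/EBP family. C/EBPα directs stem and progenitor cells to the granulocyte and monocyte lineages, C/EBPβ acts in emergency granulopoiesis and macrophages, and C/EBPε in late granulocyte maturation. IRF8 and KLF4 favor monocytes and dendritic cells, while GFI1 represses monocyte genes in granulocyte precursors and restrains stem cell proliferation. Several of these genes depend on distal enhancers that are named by their distance in kb from the gene.

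The promoters are shown first because the open stretch lay at a different place in each. The RefSeq promoter table (GRCm38.p6) had an entry for Cebpa, Cebpb, Irf8, Gfi1 and Klf4. The sequences run 5′ to 3′ on the gene strand from 250 bases before the start, and the capitals mark the stretch from the lowest to the highest position of the strongest summit among the libraries with a peak there.
Cebpa, chr7:35119043-35119312, plus strand: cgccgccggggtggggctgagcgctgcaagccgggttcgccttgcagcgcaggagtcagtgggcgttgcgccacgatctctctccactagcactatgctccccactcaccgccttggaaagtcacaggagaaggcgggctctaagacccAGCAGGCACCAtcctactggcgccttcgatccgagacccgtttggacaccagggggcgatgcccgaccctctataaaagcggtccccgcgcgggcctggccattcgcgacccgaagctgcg
Cebpb, chr2:167688665-167688934, plus strand: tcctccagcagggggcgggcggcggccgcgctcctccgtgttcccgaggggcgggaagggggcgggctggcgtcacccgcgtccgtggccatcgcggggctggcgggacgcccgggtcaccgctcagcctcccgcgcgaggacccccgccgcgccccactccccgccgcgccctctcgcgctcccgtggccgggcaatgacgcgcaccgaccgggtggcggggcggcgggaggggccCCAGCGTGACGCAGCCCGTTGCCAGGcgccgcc
Irf8, chr8:120736108-120736377, plus strand: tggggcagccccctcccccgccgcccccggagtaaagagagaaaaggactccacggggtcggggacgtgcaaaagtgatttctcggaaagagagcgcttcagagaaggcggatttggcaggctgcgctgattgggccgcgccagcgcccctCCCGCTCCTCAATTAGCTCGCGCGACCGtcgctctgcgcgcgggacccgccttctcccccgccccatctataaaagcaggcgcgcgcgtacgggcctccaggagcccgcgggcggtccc
Klf4, chr4:55532456-55532725, minus strand: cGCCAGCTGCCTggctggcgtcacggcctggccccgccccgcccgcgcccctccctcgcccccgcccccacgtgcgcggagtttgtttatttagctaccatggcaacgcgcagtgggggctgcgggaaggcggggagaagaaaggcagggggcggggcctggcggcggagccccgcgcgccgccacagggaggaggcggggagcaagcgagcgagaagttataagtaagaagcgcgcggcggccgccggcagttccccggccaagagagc
Gfi1, second start, chr5:107724324-107724593, minus strand: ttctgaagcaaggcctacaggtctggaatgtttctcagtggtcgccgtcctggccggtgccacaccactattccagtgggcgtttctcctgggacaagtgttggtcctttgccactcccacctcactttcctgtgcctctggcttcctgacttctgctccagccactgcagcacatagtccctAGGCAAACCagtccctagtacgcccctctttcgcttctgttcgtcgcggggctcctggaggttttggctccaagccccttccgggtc
Counted from the start base as 0, the strongest summits lay from −101 to −91 at Cebpa, from −13 to 12 at Cebpb, from −99 to −72 at Irf8 and from −249 to −239 at Klf4. At each of these 4 starts the libraries of both genotypes thus had their summit in the same short stretch. At Gfi1 the strongest summits lay from 264 to 363 bases after the first of its 2 RefSeq starts, outside the printed stretch. The second start lies 1462 bases after the first, and its sequence is given because a region beside it was found only in the controls, as described with Gfi1.

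The printed stretches of 270 bases were rich in G and C. They had 66.3% at Cebpa, 81.9% at Cebpb, 68.5% at Irf8, 73.3% at Klf4 and 58.5% at the second start of Gfi1. The same stretch, not printed, had 58.9% at the first start of Gfi1 and 54.4% at the second start of Irf8. The median over all 32619 promoters of the table was 53%, taken over slightly longer entries of 300 bases. Both strands of the whole entries of 300 bases were searched for the letters of 3 motifs, GGAAGT of PU.1, TTNNGCAA of C/EBP and TGTGGT of RUNX factors, none of which contains another. Among all promoters, 23.9%, 10.9% and 16.6% hold them. Among the 7 entries of the 5 genes there was 1 match, a C/EBP motif whose first base lies at −143 from the first start of Gfi1. A match is a run of letters and was not tested as a binding site.

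The values compared are ranks. Without read counts in the lists the depth of each library is unknown, and the authors' fold (signal at a summit over the background of its own library) cannot be compared directly between lists of different depth. Each region was therefore given a percentile, the rank of its highest fold among all regions of the same library, with 100 for the strongest. A difference is the mean of the 2 KO libraries minus the mean of the 2 controls, in points of percentile. Exact permutation of 2 libraries against 2 cannot give a two-sided p below 0.33, so the test used was limma over all 80271 regions held by the 4 libraries. It called 0 of them at an adjusted p under 0.05, a share of 0%, and hence 0 of the 79 around the 7 genes. At an unadjusted p under 0.05, 2.60% of all regions were higher and 3.03% lower in KO, and among the 79 these were 1 and 2 regions. No difference given here passed the test across all regions.

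The lists held 240881 to 277531 summits on the autosomes and X, and the median fold of regions held by all 4 was 6.10, 6.18, 5.86 and 5.41 in control 1, control 2, KO 1 and KO 2. KO 2 was the shortest list and had the lowest median fold and −log10 q (7.50, against 10.6 to 13.3). Cpt1a held 18, 17, 15 and 13 regions in the same order, but the sources used here do not place the deleted part, so this does not check the deletion. Of all 17274 protein-coding genes with a start in the RefSeq promoter table, 65.4% had a region within 500 bp of it in all 4 libraries, with a median percentile of 94.6. Of the stem cell marker genes with a start, 8 of 8 did, with a lower median of 89.3. None of the 3 T cell and none of the 2 erythroid markers did, although Cd3g had one in 3 libraries. All 3 of 3 B cell markers did, with a median of 44.4. For mature neutrophils and monocytes 4 of 6 did, with a median of 66.9, and Ly6g had none. Both KO libraries were above both controls at 1 B cell marker (Pax5) and 2 stem cell markers. They were below at 1 stem cell marker and 2 mature cell markers. Over 11292 protein-coding genes with a region in all 4 libraries, 2620 were above and 1422 below. These counts of few markers were not tested. In bulk libraries, fewer cells of a type and less open chromatin per cell cannot be told apart.

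**Figure D1:**
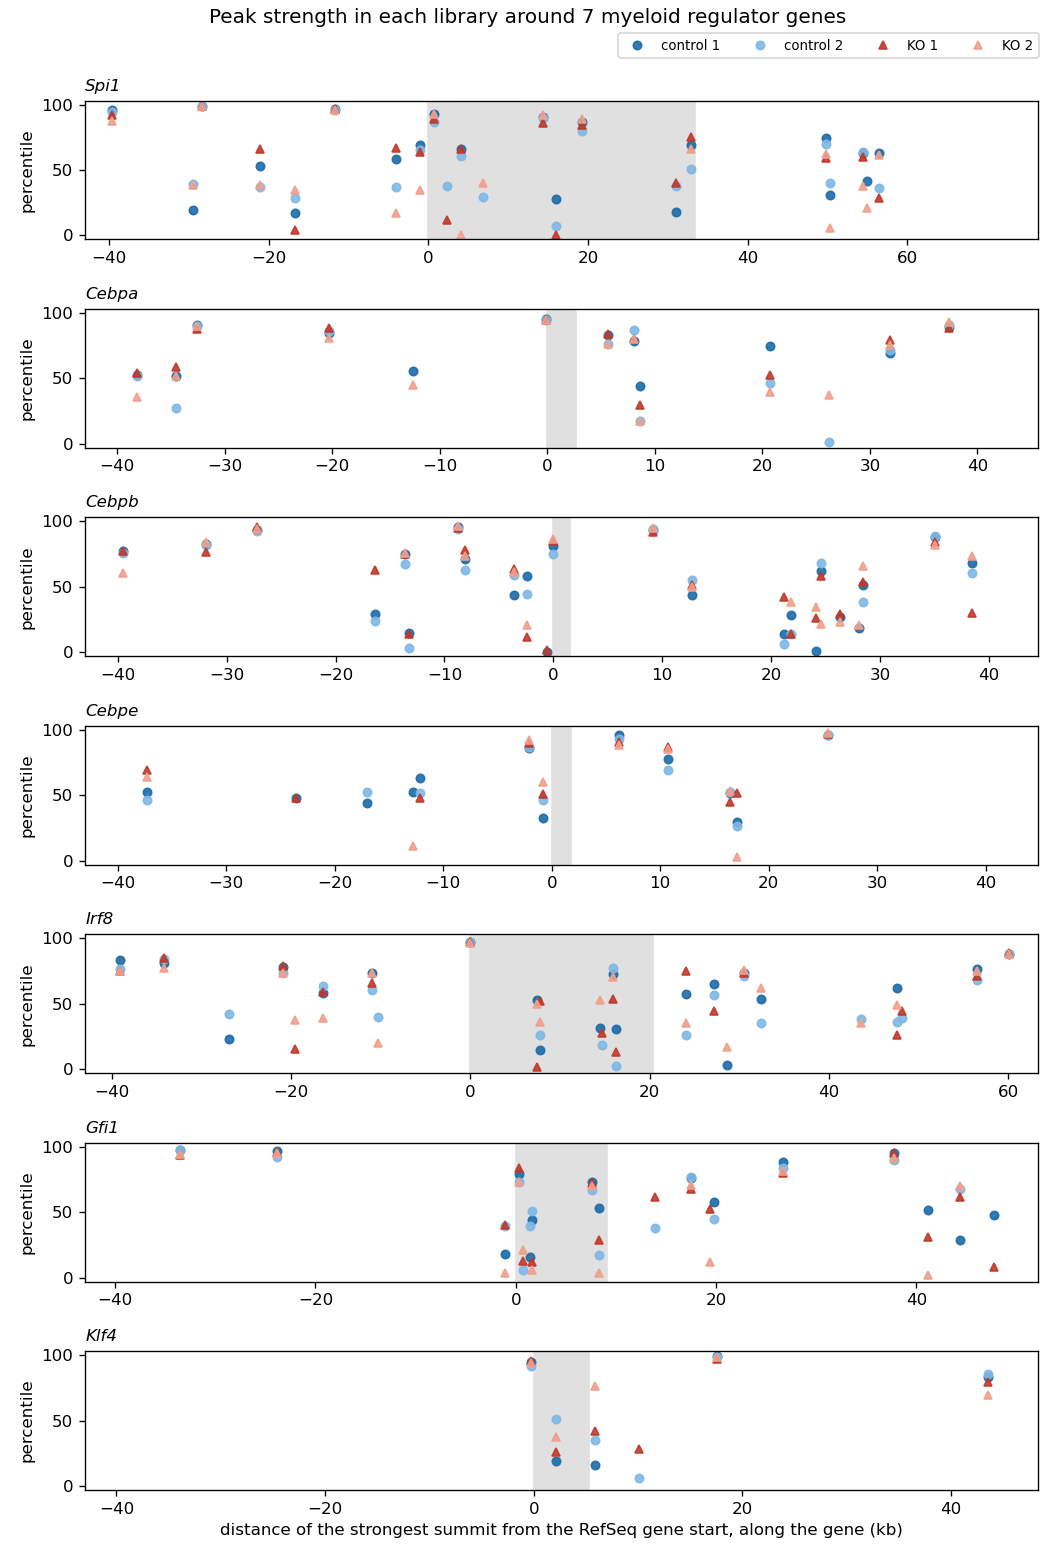
Percentile of each region within its library (vertical axis, 100 strongest) against the distance of its strongest summit from the RefSeq gene start along the gene (horizontal axis, kb). Regions seen in at least 2 libraries are shown for 7 genes, circles are the 2 controls, triangles the 2 KO libraries and the gray band is the gene body. The points of strong regions, such as the Irf8 start at 96.8 to 97.4, lie close together, while weak regions spread widely.

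The number of open regions differed between the windows. Per 100 kb, regions seen in at least 2 libraries numbered 28.2 at Cebpb, 24.9 at Irf8, 20.2 at Gfi1, 19.4 at Spi1, 15.7 at Cebpa, 14.7 at Cebpe and 7.03 at Klf4. The median over 21631 protein-coding genes with windows of the same flank was 9.95. Cebpb stood at percentile 98.7 and Irf8 at 96.4 of these genes, and Klf4 was the only one of the 7 below the middle, at 37.3. Part of each window belongs to neighbors. The strongest region of the Spi1 window lay at −28.4 kb in Psmc3, a proteasome gene, and that of Cebpe at 25.4 kb at the start of Acin1.

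Most regions were present in both genotypes, and among regions seen in at least 2 libraries each KO library held fewer than each control, here as across the genome. Of the 119 regions seen in at least 2 libraries, control 1 held 107, control 2 held 104, KO 1 held 102 and KO 2 held 99, or 89.9%, 87.4%, 85.7% and 83.2%. Over all 137553 such regions the shares were 86.4%, 85.1%, 82.9% and 78.3%, in the same order. Counting also regions seen in 1 library, the windows held 139 and 140 in control and 131 and 133 in KO, and the genome 172740 and 152879 in control and 168591 and 163574 in KO, so over the genome control 2 then had the fewest. All 4 libraries held 66.4% of the 119, against 58.4% of all. Regions held by both KO libraries and neither control numbered 2 of 119, where the background is 3.47%, and regions held by both controls and neither KO library numbered 4 of 119, where it is 6.05%. Spi1, Cebpa, Cebpb and Klf4 had none of either kind.

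**Figure D2:**
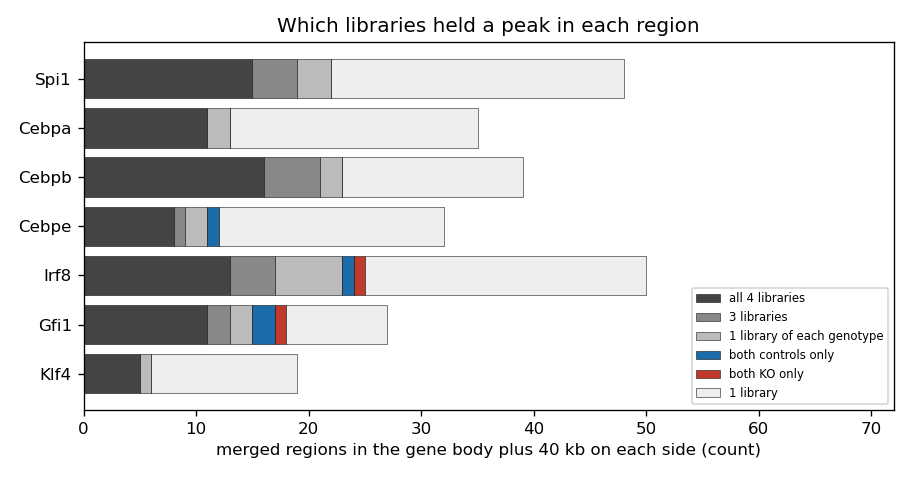
Number of merged regions (horizontal axis) in the gene body plus 40 kb on each side of 7 genes, split by which libraries held a peak. Regions of one genotype are the thin blue and red parts at Cebpe, Irf8 and Gfi1, and regions seen in 1 library make up 9 of 27 at Gfi1 and 26 of 48 at Spi1.

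The 6 regions of one genotype were all weak. Only in KO were a region at 19.4 kb from the Gfi1 start (chromosome 5, 107706303 to 107706526), with a −log10 q of 2.75 in KO 1 and 0.459 in KO 2, and one at −19.6 kb from Irf8 (chromosome 8, 120716702 to 120716855), with 0.991 and 1.78. Only in control were 2 regions of Gfi1 (107705881 to 107706137 and 107724358 to 107724696), 1 of Irf8 (120709339 to 120709474) and 1 in Slc7a8 in the Cebpe window (chromosome 14, 54729146 to 54729274). Their −log10 q ran from 0.901 to 5.98. With the 100000 strongest summits of each library none of the 6 was left as a region in any library. When each summit was widened by 200 bp to either side, the 3 regions of Gfi1 became part of regions held by all 4 libraries.

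The shift in rank was small as well. Of the 79 regions held by all 4 libraries, both KO percentiles were above both controls in 15 (19.0%) and below both in 17 (21.5%), and the genotypes overlapped in 47. The background is 19.0% above and 17.8% below, so neither share stands far from it. The median difference of the 79 was −0.42 points, with 37 above 0 and 42 below, against 0.06 points over all regions. When the lists were first made equally long, the median over all regions moved to 1.40 points and the shares of all regions to 27.7% above and 12.0% below, and those of the 7 genes to 25.6% and 16.7%, with a median of 1.10 points. The split between higher and lower regions thus depended on the length of the lists.

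The size of the difference went with the strength of the region. The 17 regions with a mean percentile of at least 90 had a median absolute difference of 0.886 points and a largest one of 5.47. The 26 regions from 70 to 90 had a median of 3.15, and the 36 regions under 70 had a median of 12.3 and a largest of 39.1. A gap of several points therefore meant little in a weak region and stood out in a strong one.

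**Figure D3:**
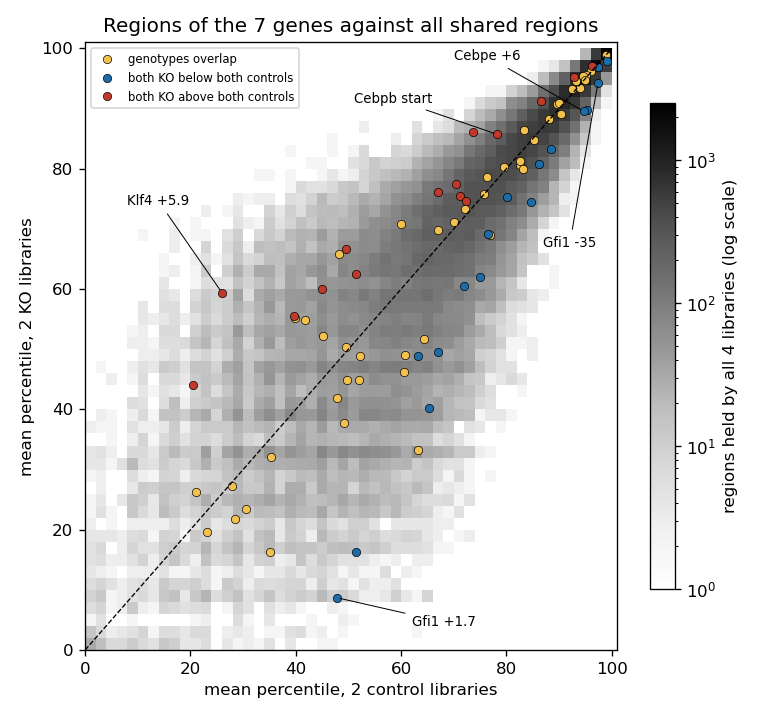
Mean percentile of the 2 KO libraries (vertical axis) against that of the 2 control libraries (horizontal axis) for the 79 regions around 7 genes held by all 4 libraries. Gray squares count all 80271 such regions on a log scale, the dashed line marks equal values and the number after a gene is the distance in kb. The labeled Gfi1 region at 1.66 kb lies farthest below the line (−39.1 points) and the Klf4 region at 5.87 kb farthest above it (33.4).

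Spi1, on chromosome 2 from 91082374 to 91115759, encodes PU.1. Its RefSeq gene begins at upstream first exons, so the region nearest to that start, 413 bp after it, was the upstream regulatory element, the enhancer that keeps PU.1 levels up in stem cells. After the values were seen, the main promoter was taken as the region from 91096261 to 91097386, 14.4 kb after the RefSeq start, and enhancer distances were counted from it. The main promoter had percentiles of 90.3 and 89.8 in control and 86.0 and 92.1 in KO, a difference of −1.01 points. The upstream regulatory element (91082787 to 91083705, −13.7 kb) had 92.8 and 86.6 in control and 88.6 and 93.0 in KO, a difference of 1.15 points. Both elements were open in every library and their genotypes overlapped, except that the upstream element was above both controls in both KO libraries, by 11.9 points, when regions were ranked by the mean fold of their summits.

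The −12 enhancer of Spi1 (91084658 to 91084762) was found in control 2 at percentile 37.5 and in KO 1 at 11.8, and had no peak in control 1 or KO 2. It was the weakest of the matched elements, with a −log10 q of 6.77 and 1.99, and 1 library of each genotype held it. Across the 15 regions of the window held by all 4 libraries, both KO libraries were below both controls in 4 and above in none, and the median difference was −3.48 points. The background is 17.8% below and 19.0% above, and the count was not tested. The largest of these among strong regions lay in Rapsn at −39.6 kb from the RefSeq start (91042421 to 91043423), with 96.0 and 94.7 in control and 92.1 and 87.6 in KO, a difference of −5.47 (limma adjusted p = 0.868). The other 3 lay at −1.08 kb, at 49.8 kb in Mybpc3, and at 54.4 kb, so 1 of the 4 was within 5 kb of Spi1. The region at Slc39a13, −11.7 kb from the RefSeq start, had 96.0 to 96.4 in the 4 libraries.

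Cebpa, on chromosome 7 from 35119293 to 35121928, encodes C/EBPα, the factor that starts granulocyte and monocyte commitment. Its promoter region (35118044 to 35119727) had percentiles of 95.4 and 94.5 in control and 94.7 and 94.9 in KO, a difference of −0.15 points, and a fold of 15.0, 14.4, 14.2 and 13.4 in the order control 1, control 2, KO 1 and KO 2. It was the strongest region of its window. The +37 enhancer, which drives Cebpa in myeloid progenitors, was matched by a region at 37.3 kb (35156317 to 35157891) with 89.4 and 90.5 in control and 88.7 and 93.2 in KO, and it also covers the start of Gm35889. Both elements overlapped between the genotypes, but not when regions were ranked by the mean fold of their summits, where both KO libraries were above both controls, by 6.54 points at the promoter and 9.33 at the enhancer. Only 1 of the 11 regions held by all 4 libraries did not overlap, at 31.8 kb, with 69.2 and 71.6 in control and 79.6 and 75.4 in KO (limma adjusted p = 0.877). The background is 19.0% above and 17.8% below, and this count was not tested.

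Cebpb, on chromosome 2 from 167688915 to 167690432, encodes C/EBPβ. Its promoter region was the only one among those of the 7 genes above both controls in both KO libraries. Over 11292 protein-coding genes with a promoter region in all 4 libraries, 2620 were above and 1422 below. A single promoter above among so few does not stand out from that, and the count was not tested. The promoter region (167688599 to 167690208) had percentiles of 81.6 and 74.9 in control and 85.0 and 86.4 in KO. The difference was 7.49 points, from 78.2 ± 4.70 (SD, n = 2) to 85.7 ± 1.02 (SD, n = 2), and did not pass limma's test (adjusted p = 0.871). It kept its sign and the genotypes stayed apart in 10 of 10 alternative settings, with differences from 2.55 to 21.4 points. The settings that left out a library could change neither, and the others ranked or cut the same lists again. The −log10 q at the promoter was 55.2 and 42.6 in control and 60.0 and 39.0 in KO, so that raw score did not separate the genotypes. When regions were ranked by −log10 p within each library, both KO libraries were above both controls, by 2.55 points.

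Upstream of Cebpb, at −2.41 kb (167686369 to 167686585), a weaker region went the other way, with 58.0 and 44.9 in control and 11.6 and 21.0 in KO. The difference of −35.2 points had an unadjusted limma p of 0.00723 and an adjusted p of 0.841, and was −12.8 points with ranks among shared regions only. Its −log10 q was 13.3 and 9.77 in control and 2.72 and 3.09 in KO. Of the 16 regions of the window held by all 4 libraries, 6 were above both controls and 3 below, where the background is 19.0% and 17.8% and the counts were not tested. The strongest, at −8.79 kb (167679798 to 167680666), overlapped, with 95.8 and 94.3 in control and 94.7 and 96.3 in KO. The regions next to it at −8.07 kb and −3.61 kb were among the 6, with differences of 9.20 and 11.1 points.

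Cebpe, on the minus strand of chromosome 14 from 54710363 to 54712174, encodes C/EBPε, which is needed for the secondary granules of neutrophils. It had no region within 500 bp of its start in the merged lists. The nearest lay 618 bp away (54712792 to 54713142), with percentiles of 32.9 and 46.3 in control and 51.2 and 59.9 in KO, and a second at −2.12 kb (54713979 to 54715087) had 85.9 and 87.2 in control and 90.1 and 92.5 in KO. Both stood higher in both KO libraries, by 15.9 and 4.73 points (limma adjusted p = 0.868 and 0.872).

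The +6 enhancer of Cebpe, through which C/EBP factors act on the gene, stood lower in KO. Its region at 6.17 kb (54705667 to 54706924) had percentiles of 96.2 and 93.2 in control and 90.8 and 88.3 in KO, a difference of −5.17 points. The fold was 15.9 and 13.4 in control and 11.0 and 9.0 in KO, and the −log10 q was 124 and 104 against 51.4 and 29.9. Fold and −log10 q also had lower medians in both KO libraries over all shared regions, and the percentile is a rank of the same fold, so the 3 measures are not separate evidence. limma gave an adjusted p of 0.868. The sign held in 10 of 10 alternatives, with differences from −15.0 to −3.69 points. Those that left out a library could not change it, and the others ranked or cut the same lists again. The next region downstream, at 10.7 kb (54701413 to 54701760), went the other way, with 77.7 and 69.7 in control and 86.6 and 85.5 in KO, a difference of 12.4 points (limma adjusted p = 0.868). Of the 8 regions held by all 4 libraries in this window, 5 stood higher in both KO libraries, and the +6 enhancer was the only one that stood lower. The background is 19.0% and 17.8%, and these counts of few regions were not tested.

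Irf8, on chromosome 8 from 120736358 to 120756694, encodes the factor that commits progenitors to monocytes and dendritic cells. Its promoter region (120735768 to 120736851) was the strongest promoter of the 7 genes, with percentiles of 97.4 and 97.2 in control and 97.0 and 96.8 in KO. The genotypes did not overlap, but the difference was −0.44 points (limma adjusted p = 0.951). Of 3 known distal enhancers, the +56 enhancer had a region in every library at 56.5 kb (120792498 to 120793314), with 76.3 and 67.9 in control and 71.1 and 75.4 in KO. The +32 enhancer had a weak region at 32.4 kb (120768618 to 120769051), with 53.6 and 35.5 in control, 62.2 in KO 2 and no peak in KO 1. No region lay within 1500 bp of 41 kb, the nearest being at 43.6 kb, in 2 libraries. The elements known from committed monocytes and dendritic cells were thus weaker than the promoter in both genotypes.

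Inside Irf8, at 7.76 kb (120743949 to 120744312), a weak region had 14.8 and 26.1 in control and 52.3 and 35.9 in KO, a difference of 23.7 points. It was the 1 region of the 79 with an unadjusted limma p under 0.05 and a higher value in KO (adjusted p = 0.868), and its −log10 q was at most 3.05. The difference was 9.86 points with ranks among shared regions only and 11.5 with widened summits, where the genotypes overlapped. A stronger intragenic region at 15.9 kb (120751938 to 120752446) had 72.6 and 77.4 in control and 53.9 and 70.2 in KO (limma adjusted p = 0.871). The 13 regions held by all 4 libraries had a median difference of 0.09 points, with 2 above both controls and 3 below. The background is 19.0% above and 17.8% below, and these counts were not tested.

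**Figure D4:**
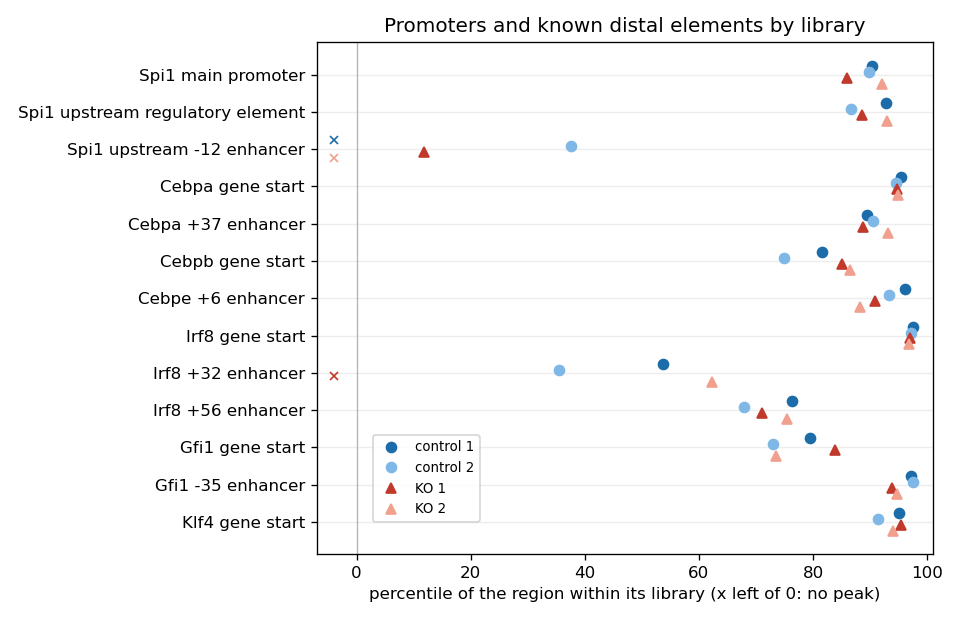
Percentile within the library (horizontal axis) of the promoter and the matched distal enhancers of 7 genes, with the 2 control libraries as circles and the 2 KO libraries as triangles; a cross left of 0 marks a library with no peak. The Gfi1 −35 enhancer, the Cebpe +6 enhancer and the Irf8 start have both KO libraries below both controls, and the Cebpb start has both above.

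Gfi1, on the minus strand of chromosome 5 from 107716655 to 107725805, encodes a repressor that holds monocyte genes down in granulocyte precursors. The −35 enhancer was matched by a region in the neighboring gene Evi5 at −33.5 kb (107759027 to 107760030), the strongest of the window, with percentiles of 97.2 and 97.6 in control and 93.8 and 94.6 in KO. The difference was −3.15 points, from 97.4 ± 0.268 (SD, n = 2) to 94.2 ± 0.573 (SD, n = 2), with a limma adjusted p of 0.868. The fold was 17.4 and 18.1 in control and 13.3 and 13.1 in KO, and the −log10 q was 83.2 and 95.1 against 47.0 and 35.3. As at the Cebpe enhancer, these measures are not separate evidence. Both had lower medians in both KO libraries over all shared regions, and the percentile ranks the same fold. A second strong region in Evi5 at −23.9 kb had 96.7 and 92.4 in control and 95.8 and 95.1 in KO, so its genotypes overlapped. Those of the −35 enhancer did too when regions were ranked by the mean fold of their summits, at −3.23 points.

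At the first start of Gfi1 the promoter region (107725222 to 107726474) had 79.5 and 73.0 in control and 83.8 and 73.4 in KO. The genotypes overlapped there, but the intervals were cut differently. Each control library had 1 interval over the start. KO 1 had one from −660 to −509 bp, one from −391 to 35 bp and one from 144 to 442 bp. KO 2 had one from −636 to 38 bp and another from 165 to 583 bp. Both KO lists had a lower median fold over all shared regions, and its part in these cuts was not tested.

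Regions near the second start, 1462 bp downstream, went both ways. A weak region before it (107724720 to 107725144) had no peak in control 1 and percentiles of 6.24 in control 2, 12.7 in KO 1 and 21.3 in KO 2. The region at 1.66 kb (107723965 to 107724240) had percentiles of 44.4 and 51.2 in control and 11.9 and 5.53 in KO, and a −log10 q of 6.12 and 8.16 against 1.77 and 1.29. The difference of −39.1 points was the largest of the 79 regions and had the lowest limma p among them (0.00198), but its adjusted p was 0.788, and it was −12.5 points when regions were ranked only among those that all 4 libraries hold. In units of the normal score that limma was fitted on, the effect was −1.33 ± 0.212 (SE). The region beside it (107724358 to 107724696), 15 bp from the second start, was held by both controls at percentiles 15.5 and 39.3, with a −log10 q of 2.35 and 5.98, and by neither KO library. It was among those lost when summits were widened.

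**Figure D5:**
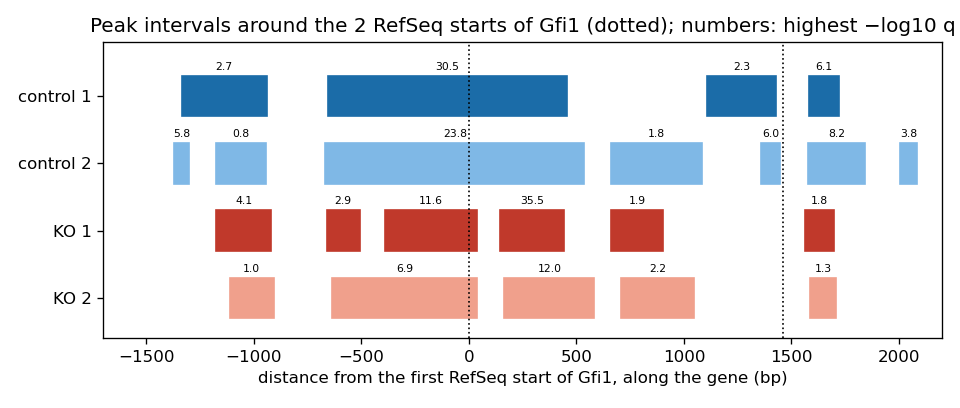
Peak intervals of each library (rows) against the distance from the first RefSeq start of Gfi1 along the gene (horizontal axis, bp), with the 2 starts as dotted lines and the highest −log10 q above each interval. Only the 2 control libraries had an interval just before the second start, and the interval just after it had a −log10 q of 6.12 and 8.16 in control and 1.77 and 1.29 in KO.

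Across the Gfi1 window, 4 of 11 regions held by all 4 libraries were below both controls in both KO libraries and none was above, with a median difference of −3.15 points. Besides the −35 enhancer and the region at 1.66 kb, these were the regions at 17.5 kb, with 76.5 and 76.6 in control and 67.4 and 70.8 in KO, and at 26.7 kb, with 88.5 and 83.7 in control and 79.6 and 81.8 in KO. The background is 17.8% below and 19.0% above, and these counts of few regions were not tested.

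Klf4, on the minus strand of chromosome 4 from 55527137 to 55532475, encodes a factor of monocyte differentiation, and its window was the sparsest of the 7. The promoter region (55532117 to 55533134) had percentiles of 95.1 and 91.5 in control and 95.3 and 94.0 in KO, a difference of 1.36 points, and it also lies at the start of Gm12506. The strongest region of the window lay downstream at 17.6 kb (55514697 to 55515341), with 99.4 and 98.8 in control and 97.1 and 98.5 in KO, a difference of −1.26 points (limma adjusted p = 0.868). Just past the end of the gene, at 5.87 kb (55526519 to 55526717), a weak region had 16.4 and 35.6 in control and 42.4 and 76.4 in KO. The difference of 33.4 points was the largest of the 79 above 0, but KO 1 lay closer to control 2 than to KO 2 (limma adjusted p = 0.868). Its −log10 q was 1.74, 4.32, 3.87 and 11.9 in the order control 1, control 2, KO 1 and KO 2.

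A stricter list changed which regions were of one genotype. Under a minimum −log10 q of 5 the windows held 59 regions in at least 2 libraries, of which 5 were found in the controls alone and 0 in KO alone. The background under the same minimum is 7.02% only in control and 0.807% only in KO, so the lean toward control was that of the whole genome. These 5 were the regions named at 1.66 kb of Gfi1 and −2.41 kb of Cebpb, and regions at 24.6 kb of Cebpb, 49.8 kb of Spi1 and 27.1 kb of Irf8. Every one of them had a weaker peak below the threshold in at least 1 KO library, with a −log10 q of 1.25 to 4.86. The number of regions that reached this threshold was 60 and 67 in control and 54 and 46 in KO, and the score rises with depth, which is unknown.

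The promoters of partners and targets were described for comparison. Of 15 partner genes (other C/EBP, AP-1, EGR, IRF and KLF factors and regulators of them), 13 had a start in the table and all 13 had a region within 500 bp of it in all 4 libraries, with a median percentile of 89.1, against 65.4% and 94.6 for all protein-coding genes. Both KO libraries were above both controls at 6 of the 13 and below at 1, whereas over 11292 protein-coding genes with such a region in all 4 libraries these were 2620 and 1422. The largest of the 6 was at Fos, an AP-1 subunit, with 78.2 and 74.7 in control and 85.3 and 88.4 in KO, and the others were Zeb2, Junb, Myb, Gfi1b and Nab2. Id2, an inhibitor of E proteins, was the 1 below, with 92.6 and 92.6 in control and 92.3 and 90.2 in KO.

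Of 12 myeloid target genes, 10 had a start in the table, of which 6 had a region in all 4 libraries, 2 in some and 2 in none (Csf2ra and Prtn3). The share in all 4 was 60%, near the 65.4% of all protein-coding genes, and the median percentile of 75.0 was below their 94.6. Itgam, the integrin CD11b, had 76.8 and 60.7 in control and 84.0 and 81.4 in KO, and Il6ra, the interleukin 6 receptor, was also above both controls. Mpo, the peroxidase of neutrophil granules, had 51.9 and 63.7 in control and 44.6 and 59.6 in KO. Elane had a region in 3 libraries and Fcgr3 a weak one only in the controls, at percentiles 13.8 and 39.4. The mature cell marker S100a8 had 83.8 and 69.8 in control and 56.1 and 66.6 in KO. Of the 6 mature cell markers with a start, 4 had a region in all 4 libraries. Among these, S100a8 and Ltf were below both controls in both KO libraries and none was above. Over 11292 protein-coding genes with such a region, 1422 were below and 2620 above. The count of few markers and the part of such cells in the differences given before were not tested.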

How the data were processed

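ATAC-Seq was done on sorted bone marrow cells with 2 control and 2 KO libraries. The authors called peaks in each library separately, and the submitters' processing notes name Bowtie2, MACS2 and mm10. Versions and parameters are not given in the sources used here. The deposited lists have a row per summit with the authors' fold (a ratio of summit signal to background), −log10 p (at least 2 in every row) and −log10 q. In 253 to 492 rows per list, 1 of them in these windows, the summit is a chromosome position and was read as one.

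Merging (chromosome Y left out) and ranking used Python 3.11.15 with pandas 2.3.3, scipy 1.17.1 and numpy 2.4.6. Percentiles were turned to normal scores and fitted with limma 3.58.1 (R 4.3.3), two-sided, with Benjamini-Hochberg adjustment over 80271 regions, after the script was tested on simulated data. The study's own test needs reads, which were not used here. Gene bodies and promoter sequences came from RefSeq (GRCm38.p6, the patch release of mm10). The regions named are the promoter region (within 500 bp), regions with a summit within 1500 bp of 8 listed enhancers (7 matched), the strongest region of each window, regions of one genotype and the 2 largest differences of each direction. Other regions were chosen after their values were seen. The Spi1 enhancers were matched from the main promoter, which was also chosen then. This choice placed the upstream element near −14 kb, so its match is not a test. Counted from the RefSeq start, as the rule was first fixed, −14 kb had no match. The match to −12 kb was then the Slc39a13 region at −11.7 kb. Members and lists were chosen with earlier results of these data known. The labels do not say whether replicate numbers pair the samples. The differences between replicates 1 and 2 of the 2 genotypes had a correlation of 0.0079 over 80271 regions, so the ranks showed no shared replicate effect.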

Additional observations from a re-analysis of the deposited data

How the results depend on the processing

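limma made 0 calls among all regions and among those of the 7 genes in each of the 13 alternatives, including the replicate block (0 calls). The samples share only a number, and the block moved no count of calls. Rank by −log10 p or by mean fold, windows around summits and rank among shared regions (the last chosen after seeing the data) kept the counts of 15 and 17 regions within 1.5 times, as did lists of equal length. Lists of the 100000 strongest summits left 42 regions, of which 9 were below both controls. Leaving out each library in turn gave 20 to 34 regions above and 22 to 29 below and medians from −1.54 to 0.226 points, because fewer libraries must agree. The median difference, −0.42 points, was above 0 with lists of equal length (1.10), the 100000 strongest summits (1.07), windows around summits (0.0172), rank among shared regions (0.00311) and without control 1 (0.226).

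Beside each count stands the share of all regions, except for a genotype left with 1 library. Regions only in KO numbered 0 with a −log10 q of at least 5 (0.807%), 0 with that threshold and no peak for absence (0.00654%), 0 with the 100000 strongest summits (3.11%), 4 of 105 where a library had to cover a share of 0.5 of the region (3.89%) and 0 with a flank of 5 kb (3.47%). Regions only in control numbered 0 with the threshold and no peak for absence (0.0647%), 1 of 56 with the 100000 strongest summits (2.75%), 12 of 105 with the covered share (11.3%) and 1 of 41 with a flank of 5 kb (6.05%). Without control 1 or control 2, 6 of 106 and 3 of 106 were only in KO (7.30% and 7.02%). Without KO 1 or KO 2, 12 of 109 and 7 of 107 were only in control (14.4% and 11.3%). The genotype left with 1 library needs that library alone, and its counts were 36 and 31 in KO and 40 and 36 in control. These have no share, because the base counts regions seen in at least 2 libraries. The Gfi1 −35 enhancer and the regions at 1.66 kb of Gfi1, −2.41 kb of Cebpb, 5.87 kb of Klf4 and 7.76 kb of Irf8 kept their sign in every alternative that gave a value (8 to 10 each), while the promoters of Spi1, Cebpa, Gfi1 and Klf4 and the Spi1, Cebpa and Irf8 enhancers held by all 4 libraries changed sign in 1 to 4 of 10. The first group did not overlap between genotypes in the main setting, so leaving out a library could not change its sign. Apart from the −35 enhancer, its regions were also picked for large differences in these data. The contrast between the groups is therefore not a test. Unknown depth limits every absence, because a missing peak can be one that was not detected.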
